A study of Rattus norvegicus with 7 samples.

Results

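The genes described here are 9 members of the fatty acid oxidation pathway and its surroundings, measured in alveolar type 2 cells of ethanol-fed and control rats. They were taken by symbol, as Cpt1a, Cpt2, Acadm, Acadl, Acadvl, Hadha, Hadhb, Ehhadh and Ucp2, and every array probe set annotated to a single symbol among these was kept. All 9 genes were found, with 13 probe sets among 8740 tested and 9 of 4736 genes named by a single symbol. Hadha had 3 probe sets, Acadl and Ucp2 had 2 each, and the other 6 genes had 1.

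Alveolar type 2 cells are the surfactant-making epithelium of the lung. The 4 control animals were male Sprague Dawley rats given a liquid Lieber-DeCarlie diet in which the ethanol was replaced by an isocaloric substitute for 6 weeks. The 3 ethanol animals were rats of the same strain and sex given that diet with ethanol at 36% of calories for 6 weeks. Cells of both groups were isolated by immunoabsorption, and no age is stated for the animals. Each animal gave 1 biotin-labelled Affymetrix array, named below by group and replicate number (control 1 to 4, ethanol 2 to 4), so p-values measure the spread between animals. The array numbers in the titles are all lower for controls than for ethanol animals, so diet and any effect of that order cannot be told apart. The titles used here hold no ethanol replicate 1 and no array number 5, and whether such an array was left out is unknown.

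Fatty acid oxidation shortens fatty acids to acetyl-CoA. Long chains enter the mitochondrion as carnitine esters, made by carnitine palmitoyltransferase 1 (Cpt1a) on the outer membrane and turned back into CoA esters by carnitine palmitoyltransferase 2 (Cpt2) on the inner membrane. Acyl-CoA dehydrogenases for very long (Acadvl), long (Acadl) and medium chains (Acadm) take the first oxidation step, and the mitochondrial trifunctional protein, built from Hadha and Hadhb, takes the remaining steps for long chains. Ehhadh is the bifunctional enzyme of the corresponding peroxisomal pathway. Ucp2 is a carrier of the mitochondrial inner membrane and not an oxidation enzyme. Many of these genes are targets of PPAR alpha, the lipid-sensing nuclear receptor, and type 2 cells handle large amounts of fatty acid because surfactant is mostly phospholipid. In liver, ethanol oxidation is known to slow the oxidation of fatty acids.

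Hadha and Hadhb are neighbours that start back to back, and their promoters are shown because these 2 genes, which encode partner subunits, share the sequence between them. In RefSeq's GRCr8 annotation, 300 bases separate the starts on chromosome 6. The 250 bases before each start are printed 5′ to 3′ on the strand of the gene, with the 200 bases that both stretches contain in capitals. The capitals of the Hadhb stretch are the reverse complement of those of the Hadha stretch. The Hadha stretch is chr6:31907551-31907800 on the plus strand, and the Hadhb stretch is chr6:31907501-31907750 on the minus strand.
Hadha: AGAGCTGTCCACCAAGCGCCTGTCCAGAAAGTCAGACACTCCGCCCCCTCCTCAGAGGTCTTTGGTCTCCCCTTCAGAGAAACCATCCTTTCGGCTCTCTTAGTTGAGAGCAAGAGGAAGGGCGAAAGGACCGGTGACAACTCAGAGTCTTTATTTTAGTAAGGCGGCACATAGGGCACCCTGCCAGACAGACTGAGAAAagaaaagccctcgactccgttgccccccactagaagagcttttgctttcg
Hadhb: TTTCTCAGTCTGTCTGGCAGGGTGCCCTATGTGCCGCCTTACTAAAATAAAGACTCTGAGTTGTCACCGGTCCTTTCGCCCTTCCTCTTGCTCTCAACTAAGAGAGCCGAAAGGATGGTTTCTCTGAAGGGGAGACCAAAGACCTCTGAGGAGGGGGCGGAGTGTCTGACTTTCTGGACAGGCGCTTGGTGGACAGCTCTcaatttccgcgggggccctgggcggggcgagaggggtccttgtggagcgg
Starts this close and in this arrangement were found for 1260 of 16845 plus-strand genes (7.48%) with a promoter in that table.

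Acadvl and Acadm carried the lowest p-values among the members, and their promoters are shown for the hexamer AGGTCA, the unit that PPAR alpha and related nuclear receptors bind. Capitals mark that hexamer on either strand in the 250 bases before the start. The Acadvl stretch is chr10:55236706-55236955 and the Acadm stretch is chr2:245542865-245543114, both on the minus strand of GRCr8.
Acadvl: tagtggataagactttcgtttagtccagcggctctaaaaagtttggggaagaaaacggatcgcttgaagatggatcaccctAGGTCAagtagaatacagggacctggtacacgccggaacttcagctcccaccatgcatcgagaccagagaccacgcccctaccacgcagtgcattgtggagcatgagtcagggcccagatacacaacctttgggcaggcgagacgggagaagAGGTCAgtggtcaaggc
Acadm: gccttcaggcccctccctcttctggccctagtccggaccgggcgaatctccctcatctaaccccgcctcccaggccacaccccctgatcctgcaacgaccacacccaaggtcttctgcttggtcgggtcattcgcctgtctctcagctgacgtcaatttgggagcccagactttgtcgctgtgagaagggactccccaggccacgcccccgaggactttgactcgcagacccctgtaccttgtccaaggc
The Acadvl stretch held AGGTCA at 2 positions, beginning 169 and 17 bases before the start, and the Acadm stretch held none. Among the 8 members with a promoter in the table, Acadvl was the only one with AGGTCA, against 14.1% of 33469 promoters of that length. The full direct repeat AGGTCANAGGTCA was in 0 of the 8 and in 0.0508% of all promoters. The GC box GGGCGG was in 4 of the 8 (Cpt2, Hadha, Hadhb and Ehhadh) and in 30.5% of all promoters, and the box found for Hadha is in the capitals shared with Hadhb. The TATA box TATAAA was in 0 of the 8 and in 12.9% of all, and CCAAT was in 1 of the 8 (Ehhadh) and in 34.0% of all. Both strands were searched for each motif, and a match is a description of letters only. The promoter of Acadl was not used here.

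None of the 13 probe sets differed between the diets at an adjusted p under 0.05 in limma, where 0.149% of all probe sets did. At unadjusted p under 0.05 there was 1 of 13, Acadvl, against 4.58% of all probe sets, which is near the background. The 95% confidence interval of the difference was inside 2-fold in both directions for 12 of the 13, the exception being Acadm, whose interval reached 2.06-fold higher. Of the 13 differences, 7 were above 0 and 6 below, with a median of 0.067 on the log2 scale against -0.0051 over all probe sets. With 1 probe set per gene, 4 genes were above 0 and 5 below, and the median was -0.013 against -0.014 over 4736 genes. The standard error of the difference was above the median of all probe sets (0.148) for 9 of the 13 and below it for 4.

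**Figure D1:**
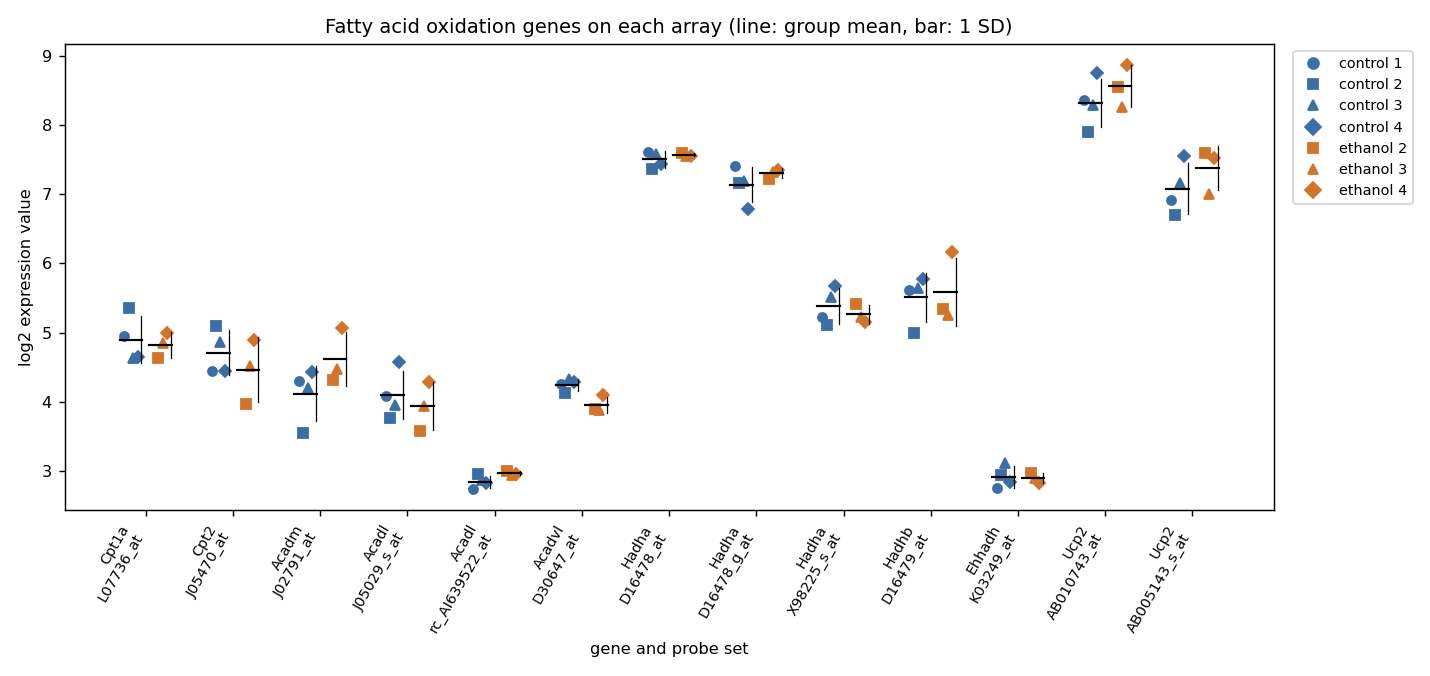
Log2 expression value (vertical axis) of each of the 13 probe sets (horizontal axis) on the 4 control arrays (blue) and the 3 ethanol arrays (orange), with group means as lines and 1 SD as bars. The groups overlap in every probe set except that of Acadvl, where the ethanol arrays lie at 3.88 to 4.09 and the controls at 4.12 to 4.33.

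The carnitine shuttle genes did not pass the test. Cpt1a (L07736_at), the entry step of long chains into mitochondria, had log2 values of 4.95, 5.36, 4.63 and 4.64 in controls 1 to 4 and 4.63, 4.85 and 4.99 in ethanol 2 to 4. Control 2 was the highest array and the groups overlapped throughout. The difference was -0.073 (SE 0.190, 95% confidence interval -0.50 to 0.35, limma adjusted p = 0.974), and its sign turned without control 2 (0.081) and without ethanol 2 (0.025).

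Cpt2 (J05470_at), which releases the acyl group inside the mitochondrion, lay at 4.45, 5.09, 4.87 and 4.44 in controls 1 to 4 and at 3.97, 4.52 and 4.90 in ethanol 2 to 4. Ethanol 2 was the lowest array and control 2 the highest. The difference was -0.25 (SE 0.239, interval -0.78 to 0.29, adjusted p = 0.967). Without ethanol 2 it was 0.00053 and without ethanol 4 it was -0.47, so its size depended on single arrays.

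The acyl-CoA dehydrogenases held both the highest and the lowest difference among the members. Acadm (J02791_at), the medium-chain enzyme, lay at 4.30, 3.54, 4.20 and 4.43 in controls 1 to 4 and at 4.32, 4.48 and 5.06 in ethanol 2 to 4. Control 2 stood lowest and ethanol 4 highest, and ethanol 2 was below control 4, so the groups overlapped. The value in control 2 was under the lower quartile of that array (3.87), so it was dim there. The means were 4.12 ± 0.396 (SD, n = 4) and 4.62 ± 0.387 (SD, n = 3), a log2 difference of 0.50 (SE 0.241, interval -0.039 to 1.04, unadjusted p = 0.0654, adjusted p = 0.967), or 1.42-fold. Without any single array the difference stayed above 0, at 0.31 without control 2 and 0.28 without ethanol 4.

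Acadvl (D30647_at), the very-long-chain enzyme, was the only member whose groups did not overlap (1 of 13, where 5.24% of all probe sets had groups that did not overlap). The controls lay at 4.25, 4.12, 4.33 and 4.28 and ethanol 2 to 4 at 3.89, 3.88 and 4.09. Ethanol 4 and control 2 were 0.029 apart, a narrow gap beside the range of 0.214 among the controls. The means were 4.24 ± 0.0909 (SD, n = 4) and 3.95 ± 0.117 (SD, n = 3), a difference of -0.29 (SE 0.117, interval -0.55 to -0.029, unadjusted p = 0.033, adjusted p = 0.967). The control level was 1.22 times the ethanol level. The values in ethanol 2 and ethanol 3 were close to the lower quartiles of those arrays (3.84 and 3.81), so the probe set was dim there. Some marker genes of other cell types also differed in level between the groups. Of 14 mesenchyme markers 11 had differences below 0, and in 3 of them the ethanol arrays lay below all controls. In 1 other marker, Sparc, the ethanol arrays lay above all controls in the probe set of highest mean. The remaining Sparc probe sets had differences below 0, so the readings of this gene conflict. Of 7 club and ciliated cell markers 5 were above 0, with 2 (Cyp2a3 and Sec14l3) above all controls. The other 2, Scgb1a1 (-0.046) and Foxj1 (-0.15), were below 0. Of 14 T and natural killer cell markers 11 were below 0, and in 2 (Prf1 and Cd3d) the ethanol arrays lay below all controls. Of 4 type 1 cell markers 3 were above 0, among them Cav1 (0.58), and Pdpn was below (-0.47), each with overlapping groups. The mean level of the mesenchyme list was 5.14 to 5.46 in the controls and 5.10 to 5.27 with ethanol, that of the club and ciliated list 5.97 to 6.69 and 6.40 to 6.74. Their summed levels, in log2, were 9.23 to 9.63 and 9.22 to 9.48 for mesenchyme and 9.75 to 10.73 and 10.22 to 10.40 for club and ciliated cells. The part of any of these cell types in the Acadvl value was not tested.

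Acadl, the long-chain enzyme, whose loss in mice is known to impair surfactant, was read by 2 probe sets that differed in sign. J05029_s_at lay at 4.08, 3.77, 3.95 and 4.58 in controls 1 to 4 and at 3.58, 3.94 and 4.29 in ethanol 2 to 4, with control 4 highest and ethanol 2 lowest. Its difference was -0.15 (SE 0.219, interval -0.65 to 0.34, adjusted p = 0.971), and it was 0.0065 without control 4 and 0.022 without ethanol 2. The other, rc_AI639522_at, ran between 2.74 and 2.95 on control arrays and between 2.94 and 3.00 on ethanol arrays, a difference of 0.12 (SE 0.109, adjusted p = 0.967). All 7 of its values were under the lower quartile of their array (3.75 to 3.87), so this probe set was dim and a change in it could be understated.

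**Figure D2:**
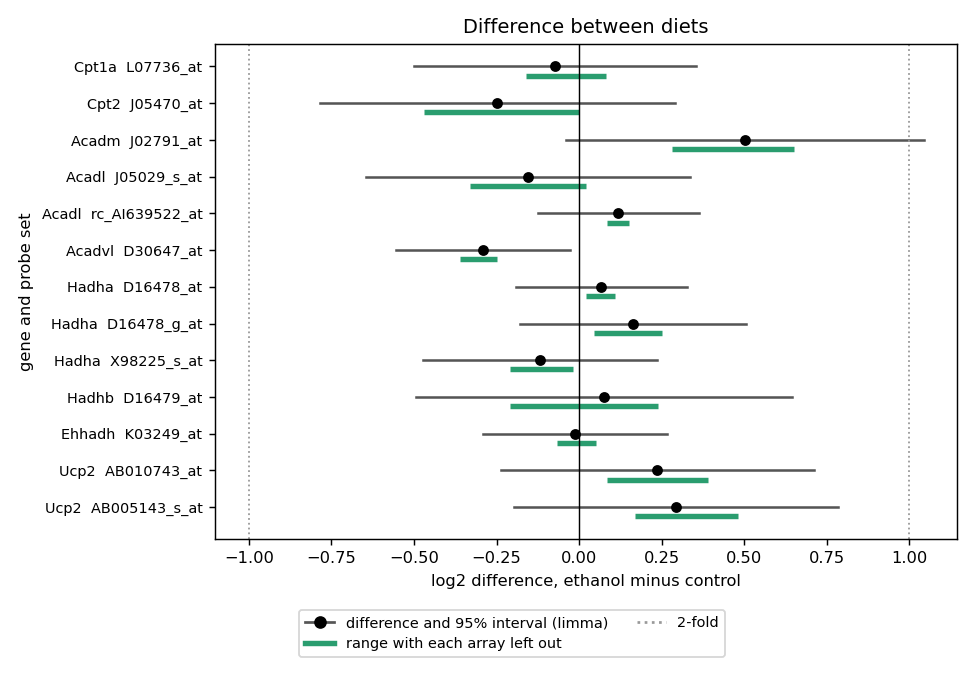
Log2 difference of ethanol minus control (horizontal axis) for each probe set (vertical axis) with its 95% confidence interval in grey and, in green, the range with each array left out in turn; dotted lines mark 2-fold. The interval of Acadvl alone lies to one side of 0 (-0.55 to -0.029), and that of Acadm alone passes a 2-fold line (1.04).

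Neither subunit of the trifunctional protein passed. Hadha, the alpha subunit, had its tightest reading in D16478_at, at 7.62, 7.37, 7.59 and 7.44 in controls 1 to 4 and 7.60, 7.56 and 7.56 in ethanol 2 to 4. The ethanol arrays sat inside the control range. The difference was 0.067 (SE 0.115, interval -0.19 to 0.33, adjusted p = 0.971). For this probe set alone, the interval ran from 0.876 to 1.25 times the control level.

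The other Hadha probe sets bracketed this value. D16478_g_at differed by 0.16 (SE 0.153, interval -0.18 to 0.50) and X98225_s_at by -0.12 (SE 0.158, interval -0.47 to 0.24), with adjusted p of 0.967 and 0.971. The 2 disagreed most in control 4, which was the lowest array for D16478_g_at (6.79) and the highest for X98225_s_at (5.68). Probe sets with the suffix s can read more than 1 transcript, so the readings of a gene need not match.

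Hadhb (D16479_at), the beta subunit, lay at 5.62, 4.99, 5.65 and 5.78 in controls 1 to 4 and at 5.34, 5.26 and 6.16 in ethanol 2 to 4. It was spread wider than Hadha, with control 2 lowest and ethanol 4 highest. The difference was 0.075 (SE 0.254, interval -0.49 to 0.64, adjusted p = 0.982). Its sign turned without ethanol 4 (-0.21) and without control 2 (-0.098).

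Ehhadh (K03249_at), the peroxisomal bifunctional enzyme, was among the dim probe sets. It lay at 2.75, 2.94, 3.11 and 2.84 in controls 1 to 4 and at 2.97, 2.90 and 2.83 in ethanol 2 to 4, all under the lower quartile of their array. The ethanol arrays were inside the control range, and the difference was -0.013 (SE 0.124, interval -0.29 to 0.27, adjusted p = 0.995). With so dim a probe set a change in Ehhadh could be missed.

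Ucp2, the inner membrane carrier, was read by 2 probe sets that both stood above 0 without passing. AB010743_at lay at 8.36, 7.90, 8.30 and 8.75 in controls 1 to 4 and at 8.56, 8.26 and 8.87 in ethanol 2 to 4, a difference of 0.24 (SE 0.210, interval -0.24 to 0.71, adjusted p = 0.967). AB005143_s_at lay at 6.92, 6.70, 7.16 and 7.56 in the controls and at 7.60, 7.01 and 7.52 with ethanol, a difference of 0.29 (SE 0.219, interval -0.20 to 0.78, adjusted p = 0.967). In both, control 4, ethanol 2 and ethanol 4 were the 3 highest arrays and control 2 the lowest, so the division ran across the diet groups. Leaving out control 4 gave 0.38 and 0.45, and leaving out control 2 gave 0.094 and 0.17.

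Some macrophage markers were high on the same 3 arrays as Ucp2, and others were not. Of 15 listed macrophage and monocyte markers 7 were measured, and their mean log2 level was 5.66, 5.43 and 5.36 in control 4, ethanol 2 and ethanol 4 against 5.13 to 5.15 on the other 4 arrays. Their summed level, in log2, was 11.54 to 12.12 in the controls and 11.34 to 11.96 with ethanol. The sum mostly follows Lyz2 (11.21 to 12.07), a lysozyme gene that type 2 cells also express. The cathepsin gene Ctss was at 6.68, 6.77 and 6.44 on those 3 arrays and at 5.06 to 5.96 on the others. Cd14, in AF087943_s_at, was at 5.95, 5.56 and 5.68 there and at 4.94 to 5.28 elsewhere. Its brighter probe set, AF087944mRNA_s_at, was less clearly divided, at 6.43, 6.28 and 5.98 against 5.68 to 5.87. Csf1r and Itgam did not follow this division, but all 7 Itgam values were under the lower quartile of their array (3.75 to 3.87). Csf1r was at 4.22, 4.28 and 4.72 in control 4, ethanol 2 and ethanol 4 and at 4.08 to 4.37 on the others, and Itgam at 2.86, 2.62 and 2.67 against 2.35 to 2.69. Nor did Spp1 (4.32, 3.21 and 2.55 against 2.43 to 3.34) or Fcgr2b, which was highest in control 2 (3.82). Fcgr2b was also under the lower quartile on all 7 arrays, and Spp1 on all but control 4. In such dim probe sets a division could be missed. No marker was listed at 0. The part of macrophage RNA in the Ucp2 values was not tested, and in these bulk isolates more cells of a type and more RNA per cell cannot be told apart.

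**Figure D3:**
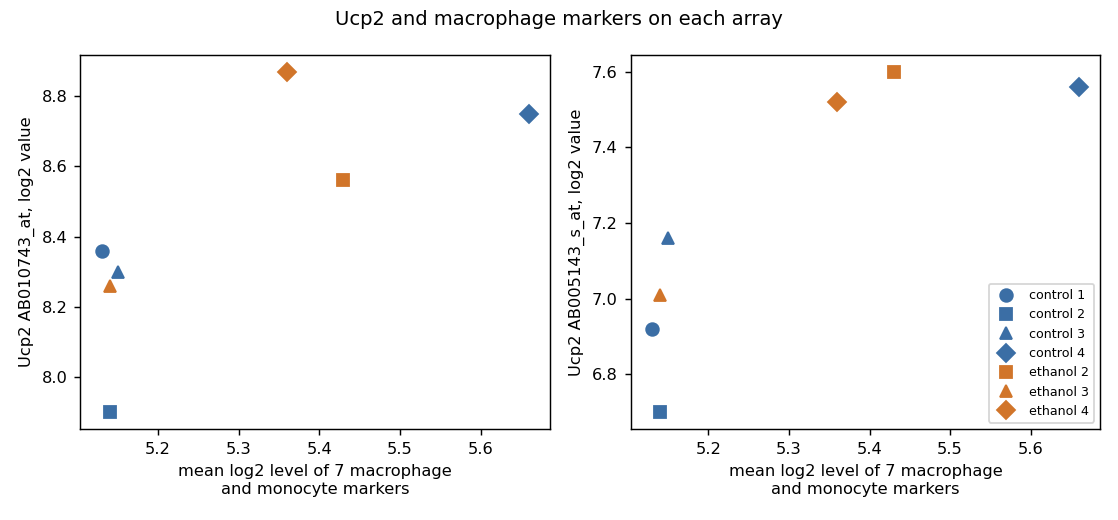
Log2 value of each Ucp2 probe set (vertical axes) against the mean log2 level of 7 macrophage and monocyte markers (horizontal axes), with 1 point per array, controls in blue and ethanol in orange. Control 4, ethanol 2 and ethanol 4 lie at marker levels of 5.36 to 5.66 with the 3 highest Ucp2 values of each probe set, and the other 4 arrays lie at 5.13 to 5.15.

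Control 2 gave the members' lowest values most often. It was the lowest of the 7 arrays in 6 of the 13 probe sets and the highest in 2 (Cpt1a and Cpt2), while ethanol 4 was the highest in 3 and the lowest in 0. Control 2 was also the array that stood apart over all probe sets, at 30.5 on the first principal component (44.2% of the variance) against -18.9 to 5.83 for the others. Its log2 values had the narrowest spread (SD 1.285) and those of ethanol 4 the widest (1.459), and the part of this spread in the members' values was not tested. Pairs of arrays correlated at 0.929 to 0.983. Surfactant protein C, the defining type 2 cell transcript (Sftpc), was at 12.41 to 12.84 on all 7, and 12.84 is the highest of all deposited values. The mean log2 level of 8 measured type 2 cell markers varied more, from 8.88 in ethanol 2 to 9.65 in ethanol 4 (9.19 to 9.57 in the controls). That of 3 measured erythrocyte markers was 7.38, 5.58 and 6.45 in ethanol 2 to 4 and 6.20 to 6.46 in the controls. Ethanol 2 was thus lowest in the first list and highest in the second, and the part of this in the members' values was not tested.

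**Figure D4:**
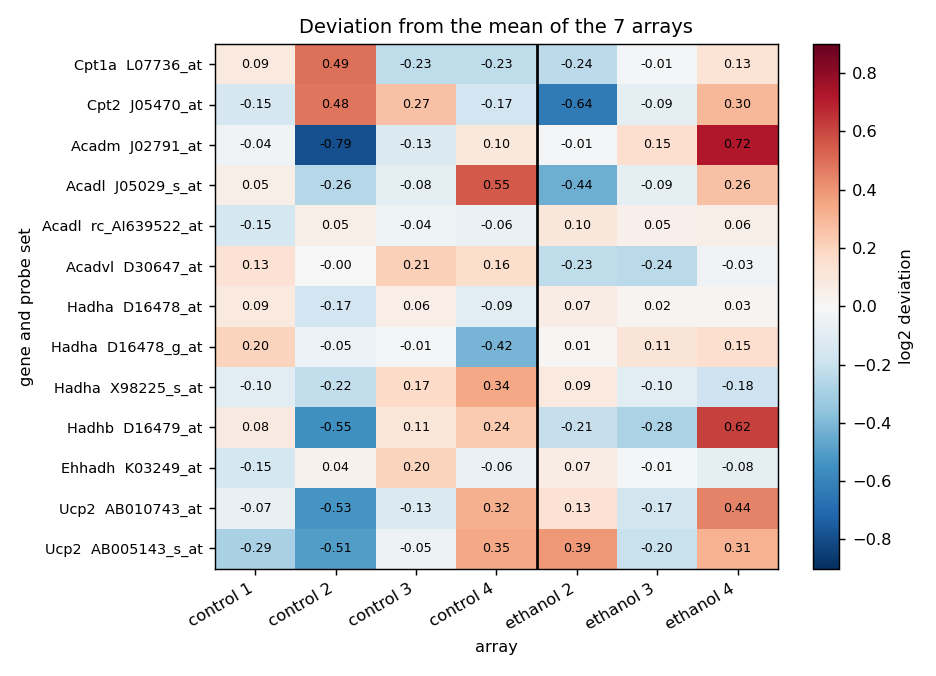
Deviation of each probe set (vertical axis) on each array (horizontal axis) from its mean over the 7 arrays, in log2 units, with red above and blue below the mean and a line between controls and ethanol. Control 2 deviates most, from -0.79 in Acadm to 0.49 in Cpt1a, and ethanol 4 is high in Acadm (0.72), Hadhb (0.62) and Ucp2 (0.44 in AB010743_at).

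After group means were removed, the average deviation of the 9 genes, each scaled to its own spread, was lowest in control 2 (-0.54) and ethanol 2 (-0.45) and highest in ethanol 4 (0.75). Acadvl, Hadhb and Acadm followed that average closely over the 7 arrays, with Pearson r of 0.977, 0.963 and 0.911, in part because each contributes to it. Ucp2 and Acadl (r of 0.743 and 0.721) followed it less, Cpt2 and Hadha weakly (0.334 and 0.326), and Cpt1a and Ehhadh not (-0.23 and -0.19). The 3 genes outside the members with the most similar deviations were Stard3, a late endosomal cholesterol-binding protein (r = 0.988), Ndufb6, a subunit of respiratory complex I (0.984), and Ormdl2, of the family that restrains sphingolipid synthesis (0.980). With 7 arrays such values are easily reached, and 81 of 4727 genes had r above 0.9. They share the same arrays, so they describe these animals and carry no test.

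The remaining enzymes listed with mitochondrial oxidation did not pass either. They were listed with earlier results of these data known, and not all of them, Acsl3 and Acot7 for example, work only in mitochondria. Of 23 measured genes 15 were above 0 and 8 below, with a median of 0.063 against -0.014 over all genes, and 0 passed. At unadjusted p under 0.05 there were 3 higher (Decr1, Etfdh and Acaa2) and 1 lower (Acsl3), where 4.37% of all genes were in either direction. Acaa2, the thiolase that ends each round of mitochondrial oxidation, was at 5.90, 5.88, 5.96 and 5.90 in controls 1 to 4 and 6.16, 6.06 and 6.33 in ethanol 2 to 4. All 3 ethanol arrays lay above the controls, as groups did not overlap in 4.92% of all genes, and the difference was 0.27 (SE 0.113, unadjusted p = 0.0374, adjusted p = 0.967).

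Decr1, the reductase needed for unsaturated chains, had a difference of 0.62 in D00569_g_at (4.00 to 5.03 in the controls, 5.06 to 5.37 with ethanol) and 0.26 in D00569_at. Etfdh, which passes electrons from the acyl-CoA dehydrogenases to ubiquinone, was at 0.37 in rc_AI176422_g_at (4.74 to 5.10 and 5.05 to 5.48), with its other probe sets at 0.11 and 0.24. Acsl3, a ligase that activates long-chain fatty acids, was at -0.61 in D30666_at, from 5.12 to 5.45 in the controls and 4.34 to 5.12 with ethanol, but its dimmer probe set rc_AA900989_at was at 0.089. The adjusted p of all 3 genes was 0.967 or more. Acot7, an acyl-CoA thioesterase, was at -0.041 in U49694_at and at 0.064 and 0.27 in its other probe sets, and Acsl5, another long-chain ligase, at 0.25 and 0.044.

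Peroxisomal oxidation and its regulators showed differences scattered around 0. Of 19 peroxisomal genes 10 were above 0 and 9 below (median 0.012, range -0.26 to 0.25), and of 18 regulators 7 were above and 11 below (median -0.050, range -0.25 to 0.34). In both lists 0 genes were at unadjusted p under 0.05. Pex14, a part of the peroxisomal import machinery, was at 0.11, and Ephx2, the soluble epoxide hydrolase, at -0.12, with its probe set X65083cds_at at 0.015. Ppard and Rxra, nuclear receptors that form a dimer on PPAR sites, were at -0.12 and 0.075, with the other Ppard probe sets at 0.027 and 0.092. Ppara itself, named here after its value was seen, was at 0.26 (SE 0.144, interval -0.065 to 0.58, adjusted p = 0.967).

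Among 29 other PPAR alpha target genes, 15 were above 0 and 14 below, with a median of 0.010 and 0 passing. Pdk4 alone was at unadjusted p under 0.05, 1 of 29 where the share over all genes was 4.37%. Pdk4, the kinase that turns off pyruvate dehydrogenase and is induced when cells burn fat, lay at 4.89, 4.89, 4.44 and 3.90 in controls 1 to 4 and 3.79, 4.18 and 3.89 in ethanol 2 to 4. Its groups overlapped through control 4, and the difference was -0.58 (SE 0.239, unadjusted p = 0.0377, adjusted p = 0.967). Fabp5, a fatty acid binding protein, was at -0.064, and Plin2, the lipid droplet coat protein, at 0.14 with its dim probe set rc_AA874941_at at -0.31.

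The lists for mitochondrial carriers and for the citric acid cycle, which takes up the acetyl-CoA, had more genes above 0 than below, and none passed. Of 11 carriers and other uncoupling proteins 9 were above 0 (median 0.17, range -0.24 to 0.29). Of 15 genes listed with the cycle 10 were (median 0.092, range -0.33 to 0.37), and 2209 of 4736 genes were over the whole array. The cycle list also holds enzymes outside the mitochondrial cycle, such as the cytosolic Idh1 (0.37) and Aco1 (0.30). In either list 0 genes were at unadjusted p under 0.05. Slc25a3, the mitochondrial phosphate carrier, was at -0.24 and Tspo, an outer membrane protein, at 0.17. Idh2 and Mdh1, dehydrogenases of the mitochondrial and cytosolic compartments, were at -0.21 and 0.15.

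**Figure D5:**
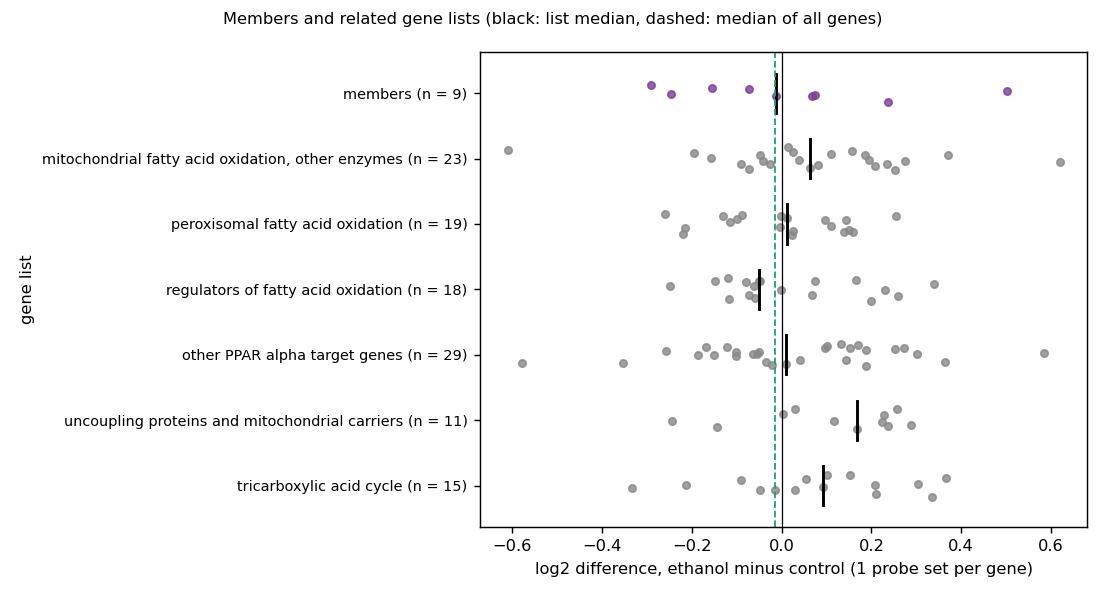
Log2 difference of ethanol minus control (horizontal axis) for the 9 members and the genes of 6 related lists (vertical axis), 1 point per gene, with list medians in black and the median of all 4736 genes (-0.014) dashed. The members spread from -0.29 to 0.50 around a median of -0.013, and the list medians lie between -0.050 and 0.17.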

How the data were processed

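The deposited table gave 1 value for each of 8799 probe sets on 7 arrays. The range of the deposited values, 1.65 to 12.84, led to their reading as a log2 scale. The arrays already had nearly equal means. Summarisation, background correction and normalization are not given in the sources used here, nor are detection calls, so dim probe sets may understate differences.

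Leaving out 59 array controls, 8740 probe sets were tested with limma 3.58.1 in R 4.3.3 (lmFit and eBayes, two-sided, Benjamini-Hochberg over all of them, passing at adjusted p under 0.05). Gene names came from the platform annotation, where 7006 probe sets had 1 symbol, 308 several and 1426 none. All 9 member symbols matched RefSeq by Entrez identifier. For counts over lists the probe set with the highest mean stood for a gene. Named genes were all member probe sets and, of each related list, those at unadjusted p under 0.05 and the 2 genes of highest mean level. Members and lists were chosen with earlier results of these data known. Alternatives changed the normalization, centring, dim filter, variance model, array weights, replicate block and arrays included. The main model was tested on simulated data with noise independent between probe sets and arrays, and the alternative models were not. Promoters are from RefSeq GRCr8. Figures used matplotlib 3.10.9. The number of arrays limits the precision.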

Additional observations from a re-analysis of the deposited data

How the results depend on the processing

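Across 17 alternatives, 0 of the members passed in any (at unadjusted p under 0.05 there were 0 to 3), and 193 of 208 member values kept their sign. Acadvl (-0.37 to -0.25) and Acadm (0.28 to 0.65) kept theirs in all alternatives run, as did both Ucp2 probe sets (0.053 to 0.48). The lowest adjusted p of any member was 0.233, for Acadvl with array weights. The other 15 changed sign, in Cpt1a, Cpt2, Acadl J05029_s_at, Hadha D16478_at, Hadhb and Ehhadh. Quantile normalization gave -0.028 for Hadha D16478_at and 0.001 for Ehhadh. Array weights gave 0.069 for Cpt1a and -0.18 for Hadhb. The array spread as a covariate, added after seeing the data, gave -0.063 for Hadhb and 0.013 for Ehhadh. With each array left out Cpt1a ran from -0.16 to 0.081, Cpt2 from -0.47 to 0.00053, Acadl J05029_s_at from -0.33 to 0.022, Hadhb from -0.21 to 0.24 and Ehhadh from -0.067 to 0.052. The cause of these changes was not tested. Over all probe sets 13 passed (13 to 16 with each array left out). It was 0 without variance moderation, with 367 at unadjusted p under 0.05, and 1 with 1 probe set per gene. Of the 13, 12 were higher with ethanol, and 0 of those 12 were among the 4736 probe sets kept in that last fit. With the replicate block 23 passed. After group means were removed, the deviations of same-numbered arrays correlated at 0.425, 0.067 and 0.432, and those of arrays of different number at -0.531 to 0.085. The values of 0.425 and 0.432 were above every value for arrays of different number. Deviations within a group sum to 0, so a high value with an ethanol array lowers those with the others. These correlations therefore cannot decide whether animals were paired. The titles do not state that the numbers pair animals, and whether they do was not tested. The filters on dim probe sets removed Acadl rc_AI639522_at and Ehhadh at a mean of 4, and 7 of the 13 at a mean of 5. Acadvl and Acadm were among those 7, so that alternative holds no value for them.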
